A study of Homo sapiens with 4 samples.

Results

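Treadmill running was added to radiotherapy in A549 lung tumors, and the tumor library of the combination group was set against that of radiation alone. These are 2 of the 4 libraries of the study, chosen by their treatment labels, with 1 library per group. A549 is a human non-small cell lung cancer (NSCLC) cell line, and the tumors were xenografts under the skin of 6-week-old male BALB/c athymic nude mice, 5 mice per group. Mice of the radiation group received 2 Gy to the tumor in each of 3 sessions per week over 2 weeks and did not run. Mice of the combination group received the same radiation and ran before it on the same day, at 8.0 m/min for 30 min. The exercise group ran on the same schedule without radiation, and the control group received neither. This pair without radiation is used below only to set running alone beside running with radiation. Nude mice lack a thymus and so mature T cells, and every tumor came from the same cell line. The sources used here do not say whether a library was made from 1 tumor or from several.

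A bout of running raises blood flow, body temperature, adrenaline and glucocorticoids, and in working muscle it induces stress and growth signals. Growth factors, mechanical load, heat and radiation all signal through MAP kinases to the immediate early genes, which encode the AP-1 factors of the FOS and JUN families, the EGR and NR4A factors and the feedback inhibitors that end the response. Their RNAs appear within minutes and decay quickly, so their level depends strongly on when the tissue is taken. Radiation acts through p53 to arrest the cell cycle, and oxygen in the tissue makes its damage to DNA more lasting. The comparison asks what running adds to irradiated tumors.

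The 4 libraries held from 33432637 (combination) to 35408705 (radiation alone) reads assigned to genes. Levels are CPM, read counts scaled to library size with TMM factors, and a ratio is the combination over radiation alone on the log2 scale with 0.5 counts added, over the 19393 genes with a mean of at least 20 reads over the 4 libraries. The 95% interval of a fold is exact (Clopper-Pearson) and covers counting error only. With 1 library on each side there is no measure of the spread between tumors, no test and no p-value, and no difference below can be said to exceed that spread. All 15 A549 and epithelial markers had reads in every library, with a summed level of 18307 CPM with radiation alone and 19108 CPM in the combination. KRT8, a simple epithelial keratin, alone had 112527 and 125804 reads.

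The tumors of these groups differed little for most genes. At the 2-fold threshold 81 genes were higher in the combination (0.418% of those compared) and 172 were lower (0.887%), and 50.1% of all genes lay above 0, with a median ratio of 0.00. Of these 253 genes, 72 of the higher and 158 of the lower ones had a mean under 100 reads. Over the 15385 genes with a mean of at least 100 reads, 9 passed the threshold upward (0.0585%) and 14 downward (0.0910%), and 51.8% lay above 0. At 1.5-fold, 448 genes were higher (2.31%) and 826 lower (4.26%). Protein-coding genes made up 45 of the 81 higher genes and 42 of the 172 lower ones, which is 0.306% and 0.286% of the 14686 compared. Long noncoding RNA genes made up 26 and 99, which is 0.692% and 2.64% of the 3755 compared. The counting interval lay wholly on the same side of no change for 78 of the higher and 161 of the lower genes.

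**Figure D1:**
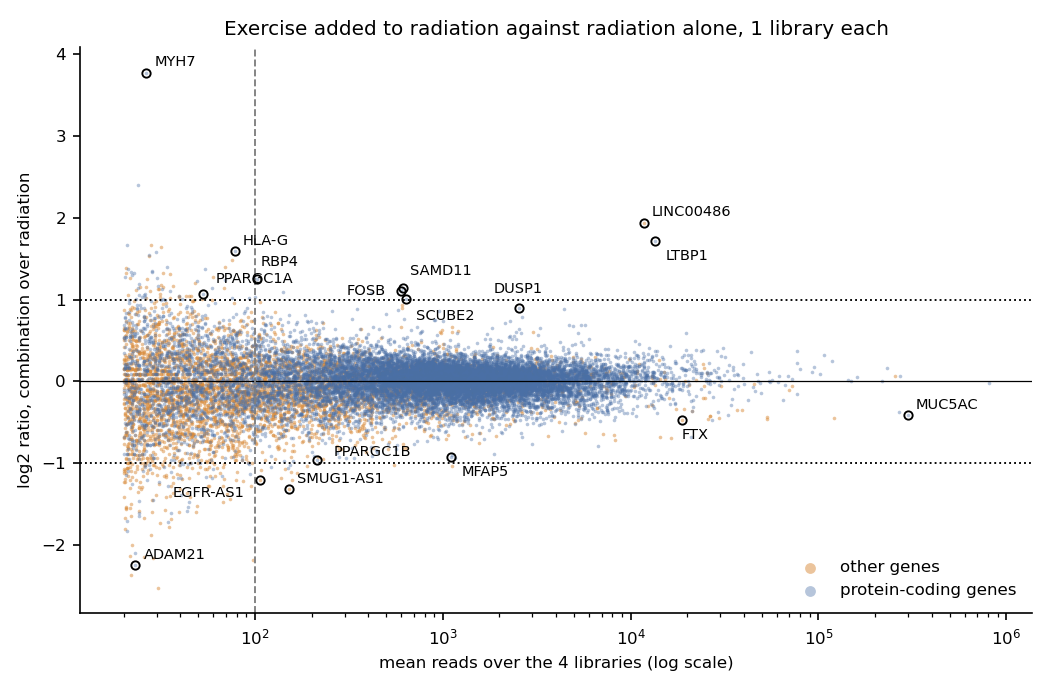
Log2 ratio of CPM, combination over radiation alone (y axis), against the mean reads over the 4 libraries (x axis, log scale), with 1 point per gene (blue, protein-coding; orange, others). Dotted lines mark 2-fold and the dashed line a mean of 100 reads; to the right of it 9 genes lie above the upper line and 14 below the lower one, and LTBP1 and LINC00486 stand apart at the upper right.

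Among genes with a mean of at least 100 reads, LINC00486 and LTBP1, which are neighbours on chromosome 2 (GRCh38, 32825441 to 32842597 and 32946953 to 33399509), had the highest ratios. LTBP1 encodes a protein that holds latent TGF-beta in the matrix, and LINC00486 is a noncoding RNA gene. LTBP1 had 10847, 5558, 9161 and 28315 reads in the control, exercise, radiation and combination libraries, 3.28-fold above radiation alone (95% interval 3.21 to 3.36). LINC00486 had 9235, 3850, 7326 and 26481 reads in the same order, a ratio of 3.84-fold (3.74 to 3.94). The order of the 4 libraries was the same for both, with exercise alone lowest and the combination highest. Their counts lay close together in each library, and whether these genes share reads was not tested. They are therefore not taken as separate observations. Together they took 0.0466% of reads in the radiation library and 0.164% in the combination library. RBP4, which carries vitamin A in blood, had 79, 75, 78 and 176 reads and was 2.39-fold higher (1.83 to 3.17). For RBP4 the other libraries lay close to each other and the combination stood above them. SAMD11, a transcriptional regulator gene, had 781, 721, 312 and 650 reads and was 2.21-fold higher (1.93 to 2.54), which put the combination between radiation alone and the unirradiated libraries. FOXJ1, the factor that drives motile cilia, was likewise lowest with radiation alone, with 125, 82, 66 and 127 reads (2.04-fold, 1.51 to 2.79). The highest 10 also included FOSB, COL8A1, SCUBE2 and LOC107984265. SCUBE2, a secreted protein gene, had 559, 336, 566 and 1073 reads and overlaps the noncoding NRIP3-DT (522, 306, 586 and 1025 reads), so that their reads cannot be told apart if strand was not used in counting.

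Of the 208 genes at least 1.5-fold lower at a mean of at least 100 reads (1.35%), 92 were protein-coding and 87 long noncoding RNA genes. The genes compared at that mean were 13027 protein-coding and 1960 long noncoding RNA genes, so the share was larger in the latter class. The lowest 10 ratios at a mean of at least 100 reads belonged to SMUG1-AS1, EGFR-AS1, PWAR5, GSN-AS1, DEFB131B, CYP3A7 and 4 genes known only by LOC names. SMUG1-AS1 had 196, 147, 191 and 72 reads in control, exercise, radiation and combination, 0.402 of the radiation level (0.301 to 0.528). EGFR-AS1 lies inside EGFR on chromosome 7 and had 96, 134, 138 and 56 reads (0.433, 0.310 to 0.592), while EGFR, the growth factor receptor, had 5541, 5650, 5301 and 4780 reads (0.958, 0.921 to 0.996). CYP3A7, a drug-metabolizing cytochrome whose reads can be shared with close relatives, had 129, 100, 176 and 80 reads. Short of the 2-fold threshold were the mucins of the airway. MUC5AC, a gel-forming airway mucin, had 286500, 291194, 361520 and 255446 reads. Its level in the combination was 0.750 of that with radiation alone (0.747 to 0.754). MUC5B stood at 0.770 (0.765 to 0.774) and MUC16, a mucin bound to the membrane, at 0.581 (0.561 to 0.602). The 24 lung epithelial and airway genes compared had a median of 0.10 with 13 above 0, in which these mucins were the lowest and LAMP3, TFF1 and LCN2 were the highest. LAMP3, a marker of alveolar type II cells, had 48 and 73 reads (1.61-fold, 1.11 to 2.38).

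The immediate early genes were higher as a group. Of 29 compared, 28 lay above 0 (50.1% over all genes), 10 passed 1.5-fold upward (2.31%) and 2 passed 2-fold (0.418%), and the median ratio was 0.44, or 0.33 over members with a mean of at least 100 reads. KLF4 alone lay below 0, at −0.06. FOSB, an AP-1 factor, had 197, 675, 502 and 1019 reads in the control, exercise, radiation and combination libraries, and was 2.15-fold above radiation alone (1.94 to 2.40). FOS had 2137, 4975, 5017 and 7555 reads (a log2 ratio of 0.68), so that running and radiation each stood at about the same level and the combination above both. JUN, the partner of FOS in AP-1, had 3471, 5410, 3893 and 5917 reads (1.61-fold, 1.55 to 1.68). For JUN the exercised libraries lay above the libraries without exercise. ATF3, a stress-induced factor, had 560, 939, 855 and 1459 reads (1.81-fold, 1.66 to 1.97). NR4A1, a nuclear receptor without a known hormone, had 1913, 3833, 1810 and 2953 reads (1.73-fold, 1.63 to 1.84), with radiation alone at the level of control. Its antisense partner NR4A1AS had 516, 834, 383 and 689 reads, which may be in part the same reads. The other members at 1.5-fold were JUNB (1.62-fold), IER3 (1.57-fold), CCN1 (1.68-fold), ZFP36 (a log2 ratio of 0.59) and EGR2 (2.19-fold, 1.33 to 3.76, on 24 and 50 reads). ZFP36 encodes tristetraprolin, which destabilizes the RNAs of cytokines. At the other end, SRF (1.07-fold) and FOSL2 (1.06-fold) lay close to no change.

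The feedback arm of the MAP kinase pathway was higher to a smaller extent. Its 16 genes had a median of 0.22 with 14 above 0 and 1 at 1.5-fold (2.31% over all genes), DUSP1. DUSP1, the phosphatase that switches off MAP kinases and is also induced by glucocorticoids, had 1348, 2985, 2115 and 3722 reads in the control, exercise, radiation and combination libraries. It was 1.87-fold above radiation alone (1.77 to 1.97), and both exercised libraries lay above both that did not run. DUSP10 (1.33-fold, 1.21 to 1.46) and PHLDA1 (1.31-fold, 1.24 to 1.39) followed, and SPRY4, SPRED2 and ETV5 lay between 0.991 and 1.01-fold. The 10 genes of the EGFR family and its ligands had a median of 0.06 with 7 above 0. Of the ligands, AREG had 95 and 107 reads (1.19-fold, 0.899 to 1.59) and EREG 249 and 233 (0.994-fold, 0.827 to 1.19).

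The MAP kinase and cyclic AMP pathways are known to act through the CArG box and the cyclic AMP response element (CRE, TGACGTCA), and the promoters of EGR1 and DUSP1 are shown because they hold a full match to one of them. EGR1, named for its promoter after its values were seen, had 228, 946, 722 and 952 reads (1.40-fold, 1.27 to 1.54). The sequences are the 250 bases before the RefSeq start in GRCh38.p14, read 5′ to 3′ on the gene's strand. Capitals mark 2 CArG boxes, which bind serum response factor, in EGR1 and 1 CRE in DUSP1.
EGR1 (chr5:138465229-138465478, plus strand): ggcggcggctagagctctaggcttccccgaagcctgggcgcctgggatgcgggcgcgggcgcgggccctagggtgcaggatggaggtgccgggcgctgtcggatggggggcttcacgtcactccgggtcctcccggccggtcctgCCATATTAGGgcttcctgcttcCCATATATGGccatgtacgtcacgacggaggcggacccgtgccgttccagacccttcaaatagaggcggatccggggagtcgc
DUSP1 (chr5:172771196-172771445, minus strand): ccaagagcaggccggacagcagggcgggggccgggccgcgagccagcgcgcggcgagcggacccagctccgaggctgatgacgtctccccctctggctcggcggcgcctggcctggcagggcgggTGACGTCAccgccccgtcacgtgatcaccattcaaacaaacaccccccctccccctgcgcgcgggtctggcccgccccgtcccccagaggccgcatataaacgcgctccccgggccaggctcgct
RefSeq promoters were at hand for 21 of the 29 immediate early genes. On either strand, the CArG box was found in 2 of the 21 (EGR1 and SRF), against 0.938% of 14071 promoters of that length. The CRE was found in 2 (JUND and MAFF), against 2.47%. The windows before the RefSeq start of FOSB, FOS, JUN, ATF3 and NR4A1 held neither. Other starts within these genes were not searched. The AP-1 motif TGACTCA was found in 0 of them and in 3.19% of all. These are matches of letters in a short window and say nothing of binding.

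**Figure D2:**
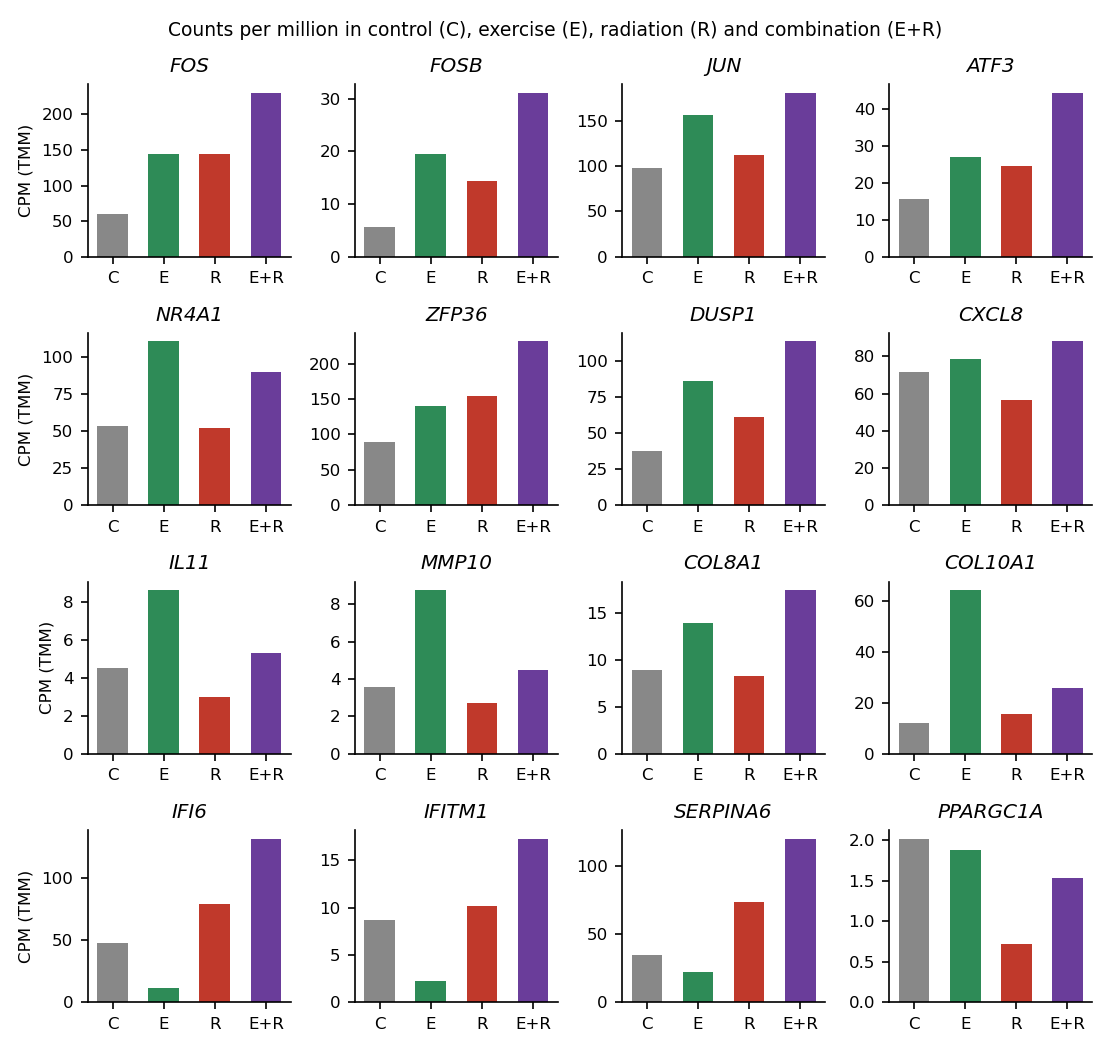
CPM after TMM scaling (y axis, from 0) of 16 genes in control (C), exercise (E), radiation (R) and combination (E+R), 1 library each, so the bars carry no error. FOS, FOSB, ATF3, ZFP36, DUSP1, CXCL8 and COL8A1 are highest in the combination, NR4A1, IL11, MMP10 and COL10A1 are highest with exercise alone, and IFI6 and IFITM1 are lowest there.

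Genes of secreted signals and proteases went both ways. The list of chemokines, interleukins and secretory phenotype genes (28 compared) had a median of 0.25, with 20 above 0 (50.1% over all genes), 5 past 1.5-fold upward (2.31%) and 1 downward (4.26%). IL11, a cytokine of the interleukin-6 family, had 161, 299, 105 and 174 reads in control, exercise, radiation and combination (1.76-fold, 1.37 to 2.26). MMP10, a stromelysin, had 128, 303, 94 and 147 reads (1.66-fold, 1.27 to 2.17). For IL11 and MMP10 the combination lay near control and exercise alone was highest. CXCL8, which attracts neutrophils, had 1965 reads with radiation and 2886 with both treatments (1.56-fold, 1.47 to 1.65), and CCL20 had 10 and 15. CCL26, an eotaxin, had 34 and 18 reads (0.569, 0.299 to 1.02), and IL15, a cytokine that working muscle also secretes, had 773 and 564 (0.775, 0.694 to 0.865). The 20 NF-kappaB feedback genes, by contrast, had a median of 0.07 with 15 above 0, with NFKBIA at 1.26-fold (1.18 to 1.36).

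Genes known to follow glucocorticoids, the clock and exercise itself did not share a direction. The 17 glucocorticoid-induced genes had a median of 0.22 with 13 above 0, and those at 1.5-fold included DUSP1, which also belongs to another list, and, lower, PER1. SGK1, a kinase that retains sodium, had 663, 931, 627 and 840 reads (1.42-fold, 1.28 to 1.58). PER1, a clock gene that glucocorticoids induce, had 331, 418, 497 and 311 reads, 0.665 of the radiation level (0.575 to 0.767). The 21 circadian clock genes had a median of −0.03 with 8 above 0; the highest were NFIL3 (1.40-fold), BHLHE40 (1.37-fold) and NR1D2 (1.22-fold). The 17 exercise-responsive secreted factors had a median of 0.05, from MSTN, the brake on muscle growth (21 and 10 reads), to CXCL8. GDF15, a stress cytokine, had 4837 and 5821 reads (1.28-fold, 1.23 to 1.33). The 6 metallothionein and zinc genes had a median of 0.22 with 5 above 0, among them MT2A at 1.16-fold (0.950 to 1.42).

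The 22 heat shock and J-domain chaperones had a median of 0.23 with 16 above 0 (50.1% over all genes), and none passed 1.5-fold in either direction. HSPA1L (1.47-fold, 1.16 to 1.86), HSPB8 (1.44-fold, 1.31 to 1.59) and CRYAB (1.44-fold) were the highest, the last pair being small chaperones of muscle and other tissues. HSF2, a factor of the heat shock response, had 275 and 207 reads (a log2 ratio of −0.32). Of 20 of their promoters, 2 held the heat shock element GAANNTTCNNGAA (HSPA8 and DNAJB6), against 0.334% of all promoters. The 26 replication-dependent histones had a median of 0.39 with 24 above 0, 4 at 1.5-fold (2.31%) and H2BC6 at 2.28-fold (1.38 to 3.96, on 23 and 50 reads). H3C10 had 47, 60, 75 and 122 reads (1.72-fold, 1.29 to 2.33). Most histone messages lack the polyA tail by which these libraries were selected, and copies of these genes share reads. The 18S ribosomal RNA copies, which also lack the tail, stood lower in the combination, with 20649 and 12127 reads for RNA18SN1 (0.624, 0.610 to 0.638).

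**Figure D3:**
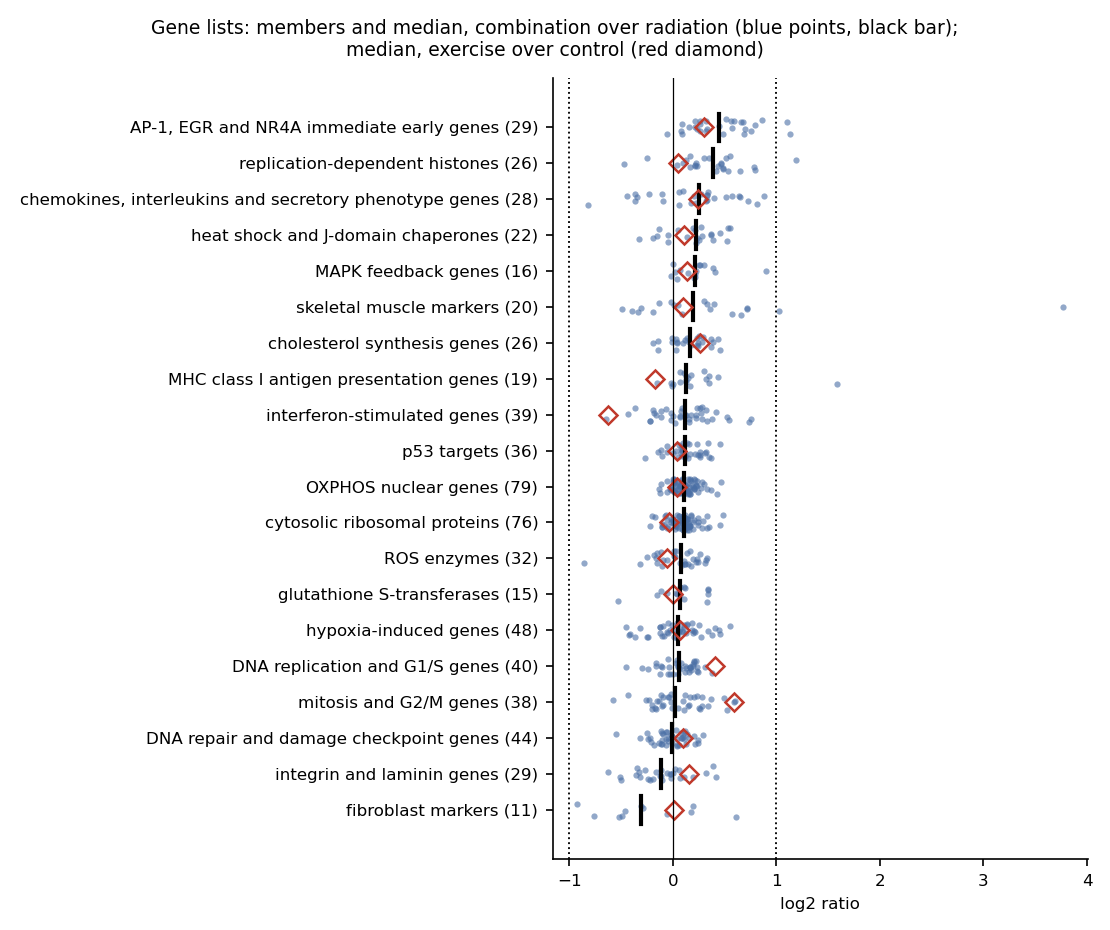
Log2 ratio (x axis) of the members of 20 gene lists (y axis, number compared in brackets); each blue point is 1 gene in the combination over radiation alone, the black bar is the list's median, the red diamond is its median for exercise over control, and dotted lines mark 2-fold. The immediate early genes and histones lie furthest to the right (medians 0.44 and 0.39) and the fibroblast markers furthest to the left (−0.31), and the red diamonds of interferon-stimulated and mitosis genes lie far from the bars.

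Ratios in this comparison were lower for longer genes, which bears on every list of short or long genes. Protein-coding genes with a mean of at least 100 reads were split into sixths by their span on the genome, introns included. The shortest sixth (median span 5.03 kb) had a median ratio of 0.10 and the longest (189.7 kb) one of −0.07, with each sixth below the one before. By the longest GENCODE transcript the medians ran from 0.09 to −0.10. In exercise over control the medians of all the sixths lay between 0.00 and 0.01. The immediate early list, with a median transcript of 3.14 kb and a median span of 5.05 kb, had a median of 0.39 once each ratio was centred on genes of like span and of 0.30 on genes of like transcript length. For the chaperones these medians were 0.20 and 0.18. For the histones, which had no transcript length here, the value centred on span was 0.32. The part of length in any list's ratios was not tested further.

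**Figure D4:**
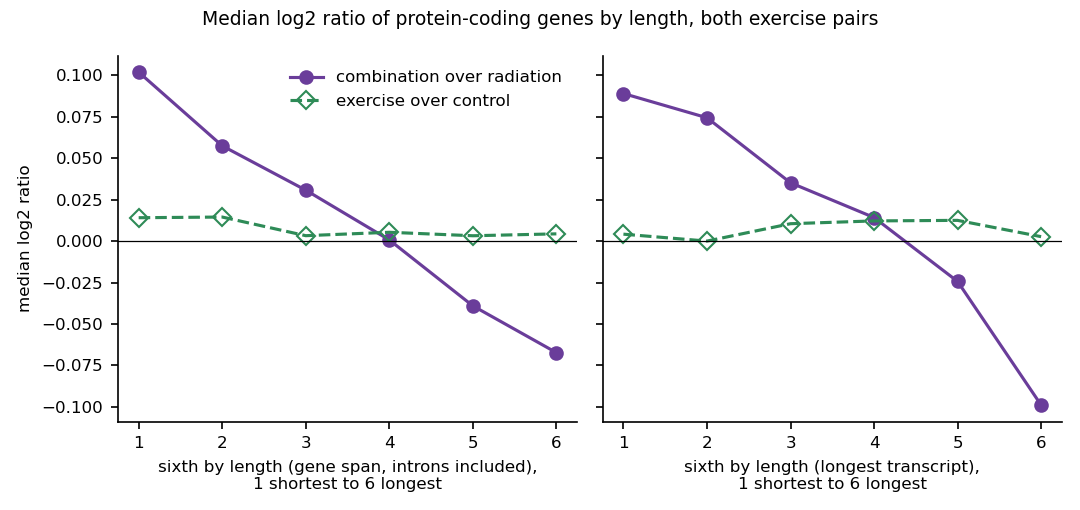
Median log2 ratio (y axis) of protein-coding genes with a mean of at least 100 reads, in sixths by gene span (left) and by longest transcript (right), from the shortest (1) to the longest (6); purple circles, combination over radiation; green diamonds, exercise over control. The purple line runs from 0.10 to −0.07 on the left and from 0.09 to −0.10 on the right, and the green line stays between 0.00 and 0.01.

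Genes of protein synthesis and energy supply, which every cell uses, lay slightly above 0. The 76 cytosolic ribosomal protein genes had a median of 0.10 with 62 above 0, and 0.05 with 49 above 0 centred on span. The 79 nuclear genes of oxidative phosphorylation (OXPHOS), which make up the respiratory chain, had a median of 0.11 with 70 above 0, and 0.06 with 56 above 0 centred on span. NDUFB3 and UQCRB were the highest named members at 1.38-fold and 1.34-fold, and NDUFA3 (0.912) the lowest. The 13 genes encoded in the mitochondrion had a median of 0.06 with 10 above 0, and −0.01 centred on span, from ND5 (0.901) to ND3 (1.26-fold). The 25 TCA cycle genes had a median of 0.11 with 20 above 0, and 0.12 centred on span, and the 23 glycolysis and lactate genes one of 0.02 with 13 above 0, or −0.01 centred on transcript length. LDHA, which makes lactate, had 21483 and 23019 reads (1.14-fold, 1.12 to 1.16).

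The study asked about oxygen and reactive oxygen species (ROS), and the genes of those pathways differed little. HIF1A, the oxygen-regulated subunit of HIF-1, had 5487, 6241, 7576 and 6447 reads in the control, exercise, radiation and combination libraries, 0.904 of radiation alone (0.874 to 0.934). CA9, the carbonic anhydrase that HIF-1 induces, had 1384, 1246, 2427 and 3032 reads (1.33-fold, 1.26 to 1.40). Both irradiated libraries lay above both unirradiated ones for each gene, and within the irradiated pair HIF1A was lower and CA9 higher in the combination. The 48 hypoxia-induced genes had a median of 0.05 with 30 above 0 and none at 1.5-fold, from STC2 (0.731) to ADM, a vasodilator peptide (1.47-fold, 1.39 to 1.54). SLC2A3, a glucose transporter, was 1.37-fold higher and PFKFB4, a regulator of glycolysis, stood at 0.746. The 18 oxygen sensing genes had a median of 0.07 with 13 above 0.

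GSTO1, a glutathione S-transferase that the study names, had 727, 738, 835 and 849 reads (1.08-fold, 0.980 to 1.19). GSTM5, another, had 0 reads in 3 libraries and 1 in the combination, which is under the 3 reads that a count of 0 allows, so no ratio is given. SLC25A31, a testis-type carrier of ADP and ATP, had 5, 2, 2 and 8 reads, a ratio of 3.59-fold with an interval of 0.848 to 41.1. The 15 glutathione S-transferases compared had a median of 0.07 with 11 above 0, from GSTM4 (0.695, 0.580 to 0.830) to GSTA1, GSTM3 and GSTA2 (each 1.27-fold). The 32 ROS enzymes had a median of 0.08 with 21 above 0, the highest being CAT, catalase (1.26-fold, 1.18 to 1.35), PRDX3, a mitochondrial peroxiredoxin (1.25-fold), and TXN2 (1.24-fold). NOX5, an oxidase that makes superoxide, had 55, 54, 85 and 44 reads (a log2 ratio of −0.86). The 38 NRF2 target genes had a median of 0.10 with 23 above 0. HMOX1, heme oxygenase, was 1.48-fold higher (1.35 to 1.63), and SLC7A11, the cystine carrier, stood at 0.740 (0.716 to 0.765). The 19 genes of the mitochondrial permeability pore and the adenine nucleotide carriers had a median of 0.06 with 14 above 0, from CKMT2 (0.741) to SLC25A4, the carrier of heart and muscle (1.31-fold, 1.19 to 1.44).

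The coactivators of mitochondrial gene expression went opposite ways. PPARGC1A, which encodes PGC-1 alpha and is induced in muscle by exercise, had 72, 65, 25 and 50 reads in the control, exercise, radiation and combination libraries (2.10-fold, 1.29 to 3.58). Its relative PPARGC1B had 262, 229, 244 and 118 reads, 0.515 of radiation alone (0.409 to 0.642). The radiation library was the lowest of the 4 for PPARGC1A and the combination for PPARGC1B. The 24 genes of AMPK, PGC-1 and energy sensing had a median of −0.01 with 12 above 0, or 0.02 when TMM factors were taken from all genes. SIRT1 was 1.14-fold higher (1.03 to 1.25). The 32 PPAR and fatty acid oxidation genes had a median of 0.06 with 21 above 0. SLC25A20, the carrier of acylcarnitines, had 337, 317, 374 and 415 reads (1.18-fold, 1.02 to 1.36). The 26 cholesterol synthesis genes had a median of 0.17 with 21 above 0, or 0.13 centred on span and 0.12 on transcript length. INSIG1, which holds back sterol synthesis, had 787, 1091, 568 and 724 reads (1.35-fold, 1.21 to 1.51), and LSS, lanosterol synthase, was the lowest (0.875).

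Genes of the radiation response itself were near the level of radiation alone, with most p53 targets and cell death genes slightly above it. The 36 p53 targets had a median of 0.12 with 30 above 0 (50.1% over all genes) and none at 1.5-fold. Centred on span and on transcript length their medians were 0.11 and 0.12, each with 30 above 0. The highest were PLK2, a polo-like kinase (1.37-fold), and PMAIP1, which encodes the death protein NOXA (1.29-fold, 1.11 to 1.51). SPATA18, a p53 target of mitochondrial quality control, had 164, 133, 1881 and 1471 reads (0.830, 0.775 to 0.890). The 32 apoptosis and cell death genes had a median of 0.08 with 26 above 0 (50.1% over all genes), or 0.07 with 25 above 0 centred on span. Among them CASP1, the caspase of the inflammasome, had 34 and 55 reads (1.71-fold, 1.10 to 2.72). The 44 DNA repair and damage checkpoint genes had a median of −0.01 with 20 above 0, or 0.02 centred on span, with PARP2 at 0.805 (0.702 to 0.923) and CHEK1, a checkpoint kinase, highest (1.22-fold, 1.06 to 1.41). MKI67, the gene of the proliferation marker Ki-67, had 3699, 6007, 1704 and 1400 reads (0.872, 0.812 to 0.937). The 38 mitosis and G2/M genes had a median of 0.02 with 19 above 0, and the 40 DNA replication and G1/S genes one of 0.06 with 27 above 0. In exercise over control, which shares no library with this pair, those medians were 0.59 and 0.41, with 38 and 39 members above 0 (50.4% over all genes). In the irradiated pair the mitotic genes at 1.5-fold were CDC25C (37 and 53 reads) and MAD2L1 (132 and 188 reads, 1.51-fold). UBE2C had 110 and 149 reads (1.44-fold, 1.12 to 1.86) and NUF2, a kinetochore gene, had 94 and 59 (0.668, 0.473 to 0.933). The 30 ATF4 and unfolded protein response genes had a median of 0.05 with 18 above 0, from SLC7A11 to PPP1R15A, a phosphatase subunit of the stress response (1.23-fold, 1.15 to 1.32).

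Interferon-stimulated genes lay mostly above 0 in this pair and below it with running alone. The 39 compared had a median of 0.12 with 25 above 0, while exercise over control gave −0.62 with 1 above 0. IFI6, an antiviral protein of the endoplasmic reticulum, had 1707, 396, 2748 and 4311 reads in the control, exercise, radiation and combination libraries (1.67-fold, 1.59 to 1.75). IFITM1, which blocks viral entry, had 310, 79, 356 and 567 reads (1.69-fold, 1.48 to 1.94). For both, exercise alone was the lowest library and the combination the highest. RSAD2, viperin, had 29, 12, 55 and 33 reads (0.640, 0.401 to 0.999), and IFI44L had 140, 10, 129 and 90 (0.742, 0.560 to 0.977). The 19 genes of MHC class I antigen presentation had a median of 0.13 with 16 above 0, against −0.18 with 2 above 0 in exercise over control. HLA-B had 2059, 1501, 4473 and 5719 reads (1.36-fold, 1.31 to 1.41), and HLA-F was 1.27-fold higher. HLA-G, a class I gene of the placenta whose reads can be shared with other class I genes, had 73, 81, 41 and 117 reads (3.01-fold, 2.11 to 4.44).

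The matrix genes went both ways. The 26 collagen genes had a median of 0.04 with 16 above 0, and 0.12 centred on span. Of them 3 were at least 1.5-fold higher (2.31% over all genes). COL8A1, a short-chain collagen of vessel walls, had 318, 480, 287 and 570 reads (2.11-fold, 1.83 to 2.44). COL10A1, the collagen of growing cartilage and of tumor stroma, had 425, 2224, 538 and 844 reads (1.67-fold, 1.49 to 1.86). It lies within the span of NT5DC1, which had 1524, 4931, 1667 and 2363 reads. Their reads cannot be told apart if strand was not used in counting. COL10A1 was highest with exercise alone and COL8A1 in the combination. The 29 integrin and laminin genes, most of them long, had a median of −0.11 with 9 above 0, and −0.04 centred on span. ITGA11, a collagen receptor, had 1909, 3142, 1925 and 1179 reads (a log2 ratio of −0.62). The 32 TGF-beta pathway genes had a median of 0.08 with 18 above 0, with LTBP1 highest and CCN2, a matricellular target, at 1.48-fold (1.40 to 1.55). Whether LTBP1 shares reads with LINC00486 was not tested. The 22 mesenchymal transition genes had a median of 0.06 with 14 above 0, in which ZEB2 was highest (1.77-fold, 1.56 to 2.02, on 387 and 646 reads) and TWIST2 lowest (0.717). The 32 vessel growth genes had a median of 0.04 with 19 above 0. APLNR, the apelin receptor, had 21, 57, 20 and 36 reads (1.89-fold, 1.08 to 3.48), and VEGFC stood at 0.784 (0.690 to 0.891).

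Markers of other cells were compared because a xenograft holds cells of the host, whose reads count where they match a human gene. Their source was not tested, nor was their part in the ratios of matrix and small chaperone genes. In bulk libraries fewer cells of a type and less RNA per cell cannot be told apart. The 30 skeletal muscle genes summed to 197.0, 211.6, 270.0 and 314.5 CPM in control, exercise, radiation and combination, with 8, 8, 1 and 0 of them at 0 reads. The 20 compared had a median of 0.19 with 13 above 0 and 5 at least 1.5-fold higher (2.31% over all genes). MYH7, the slow myosin of muscle, had 0, 2, 7 and 96 reads (13.7-fold, 6.80 to 37.2). MYH2, a fast myosin, had 0, 14, 183 and 284 reads (1.65-fold), and DES, desmin, had 39, 39, 76 and 146 (2.03-fold, 1.54 to 2.73). MYH7 reached the minimum mean of 20 reads only through the combination, so that it had to differ. MYH2 reached it mainly through the irradiated libraries, both of which enter its ratio. At a mean of at least 100 reads the median of the list was 0.01. ACTN3, of fast fibers, had 1, 6, 48 and 32 reads (0.711, 0.438 to 1.13). Reads of myosin genes can be shared among the close copies of this family.

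The 11 fibroblast markers compared had a median of −0.31 with 3 above 0, or −0.05 over those with a mean of at least 100 reads, and summed over 14 markers to 407.0, 416.8, 290.3 and 251.0 CPM. MFAP5, a microfibril protein, had 1333, 1280, 1200 and 596 reads, 0.528 of radiation alone (0.477 to 0.582). The other libraries lay close together for MFAP5 and the combination below them. COL1A1 stood at 0.818 (0.778 to 0.861), COL1A2 at 0.809 and COL3A1 at 1.13-fold, and PDGFRA had 72 and 104 reads (1.53-fold, 1.12 to 2.10). FAP had 31 and 17 reads (0.589, 0.302 to 1.09). The 9 keratinocyte markers had a median of −0.20 with 3 above 0, and the 14 in the files summed to 766.6, 1250.4, 576.3 and 493.3 CPM. FLG, filaggrin of the skin barrier, had 112, 171, 237 and 114 reads (0.512, 0.405 to 0.641) and was the lowest of them. It was the only keratinocyte marker at least 1.5-fold lower (4.26% over all genes). In the other direction 1 marker was at least 1.5-fold higher (2.31%), at a log2 ratio of 0.77. Of the endothelial and pericyte markers, 7 were compared (median 0.15, or −0.03 at a mean of at least 100 reads, 4 above 0). PECAM1, the lowest, had 655, 484, 334 and 181 reads (0.576, 0.478 to 0.692). RGS5 (0.771) and CSPG4 (0.861) were also lower. ACTA2 (1.11-fold), EGFL7 (1.15-fold), MCAM (1.18-fold) and ESAM (1.27-fold, on 30 and 36 reads) were higher. The 5 macrophage and neutrophil markers compared were all above 0 (median 0.16), and 6 of the 19 were at 0 with radiation and 5 in the combination. LYZ, lysozyme, had 1493, 1414, 2845 and 4055 reads (1.51-fold, 1.44 to 1.59). The 4 lymphoid and NK markers compared had a median of 0.11, the 4 adipocyte markers one of 0.15, and 0 of the 8 erythroid markers had enough reads to be compared.

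Genes that the liver makes and secretes formed a group that was noticed after the values were seen. Of 27 compared, 22 lay above 0 (50.1% over all genes) and 11 were at least 1.5-fold higher (2.31%). The median was 0.43, against −0.27 with 4 above 0 in exercise over control. SERPINA1, the inhibitor of neutrophil elastase, had 12169, 9771, 23506 and 33242 reads (a log2 ratio of 0.59). SERPINA6, which carries cortisol in blood, had 1243, 777, 2559 and 3943 reads (1.64-fold, 1.56 to 1.72). For both genes exercise alone was the lowest library and the combination the highest. HNF4A, a factor that drives liver genes, had 3617, 3752, 3015 and 2994 reads, a log2 ratio of 0.08.

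Long noncoding RNAs were lower as a class. At a mean of at least 100 reads, the 1960 compared had a median of −0.06 against 0.02 for 13027 protein-coding genes. Among genes that span 5 to 20 kb these medians were −0.04 and 0.07, so the classes also differed at like span. FTX, a long noncoding RNA gene on the X chromosome, had 21349, 18449, 21033 and 14305 reads (0.722, 0.707 to 0.738), and PURPL, a p53-induced noncoding RNA, 2981, 2635, 9468 and 6569 (0.737, 0.714 to 0.760). MALAT1, which stays in the nucleus, had 31419 reads with radiation and 25757 with both treatments, a log2 ratio of −0.20. In a list of 20 abundant noncoding RNAs, also chosen after the values were seen, 5 lay above 0 and the median was −0.10.

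Of 230 microRNA genes compared, 5 passed 2-fold upward (2.17%, against 0.418% of all genes) and 3 downward (1.30%, against 0.887%), all with few reads. Of all genes with a mean of 20 to 50 reads, 2.43% and 5.32% did. PolyA-selected libraries do not measure mature microRNAs, and reads over these genes come from longer transcripts. MIR421 had 42, 40, 45 and 12 reads (0.291, 0.136 to 0.544) and MIR374C 24, 16, 35 and 11 (0.343, 0.153 to 0.672). Both lie within FTX, and MIR374B overlaps MIR374C, so their reads cannot be told apart if strand was not used. MIR3614 had 65, 51, 74 and 33 reads (0.477, 0.304 to 0.723). Highest was MIR1244-3, with 37, 26, 12 and 37 reads (3.18-fold, 1.67 to 6.90), followed by MIR198 with 21, 35, 14 and 39 (2.89-fold, 1.57 to 5.90), MIR6785, MIR6834 and MIR6739. MIR198 lies within FSTL1, which was 1.23-fold higher (1.10 to 1.37). Mature sequences of the microRNAs from both ends of the range are given from RefSeq (GRCh38.p14), 5′ to 3′, with the seed, bases 2 to 8, in capitals. No seed was shared among them.
hsa-miR-421 (chrX:74218392-74218414, minus strand): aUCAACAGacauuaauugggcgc
hsa-miR-374c-5p (chrX:74218561-74218582, plus strand): aUAAUACAaccugcuaagugcu
hsa-miR-3614-5p (chr17:56891319-56891341, minus strand): cCACUUGGaucugaaggcugccc
hsa-miR-198 (chr3:120395703-120395724, minus strand): gGUCCAGAggggagauagguuc
hsa-miR-6785-5p (chr17:75498553-75498574, plus strand): uGGGAGGGcguggaugauggug

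Set side by side, running with and without radiation had few genes in common. The pairs share no library. Over all genes compared, exercise over control had 161 genes at least 2-fold higher (0.830%) and 136 lower (0.701%), and 744 (3.84%) and 623 (3.21%) at 1.5-fold. At a mean of at least 100 reads 45 were 2-fold higher (0.292%) and 26 lower (0.169%), with 50.9% above 0. Across the 15385 genes with a mean of at least 100 reads, the ratios of combination over radiation and exercise over control had a Pearson r of 0.03 and a Spearman rho of 0.02, given as a description since genes are not independent, and 50.3% had the same sign. At 1.5-fold, 106 genes were higher in the irradiated pair (0.689%) and 289 in the unirradiated pair (1.88%), and 20 in both, which is 18.9% of the former and 6.92% of the latter. The 20 included FOSB, FOS, JUN, ATF3, ZFP36, NR4A1 and its antisense, DUSP1, IL11, MMP10, TIMP3, COL8A1, COL10A1 and, on 0 reads in control, MYH2. Other members were NTRK3, a neurotrophin receptor (584, 944, 287 and 494 reads), IGFL1, MASCRNA and NT5DC1, whose span holds COL10A1. Of the 29 immediate early genes, 26 lay above 0 in both pairs, and their median in exercise over control was 0.30.

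Lower at 1.5-fold were 208 genes in the irradiated pair (1.35%) and 169 in the unirradiated pair (1.10%), and 13 in both, 6.25% and 7.69%. They were RNA18SN1 to RNA18SN5, which encode 18S ribosomal RNA, and 8 others, among them MIR29B2CHG, the host gene of microRNAs of the miR-29 family (538, 297, 474 and 246 reads), TBC1D10C and SYCP2, and otherwise noncoding or LOC genes. RMRP and RPPH1, RNAs of ribonuclease complexes without a polyA tail, had a lower mean and were also lower in both pairs, with 43, 20, 46 and 21 and with 34, 16, 36 and 15 reads. Opposite directions at 1.5-fold were seen for 16 genes. Of the 106 genes higher in the irradiated pair, 12 were lower in the unirradiated pair (1.10% over all genes). They included LTBP1, LINC00486, IFI6 and IFITM1. Of the 208 lower in the irradiated pair, 4 were higher in the unirradiated pair (1.88% over all genes). LTBP1 and LINC00486 are not taken as separate observations, and SCUBE2 and NRIP3-DT, also among the 12, overlap.

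**Figure D5:**
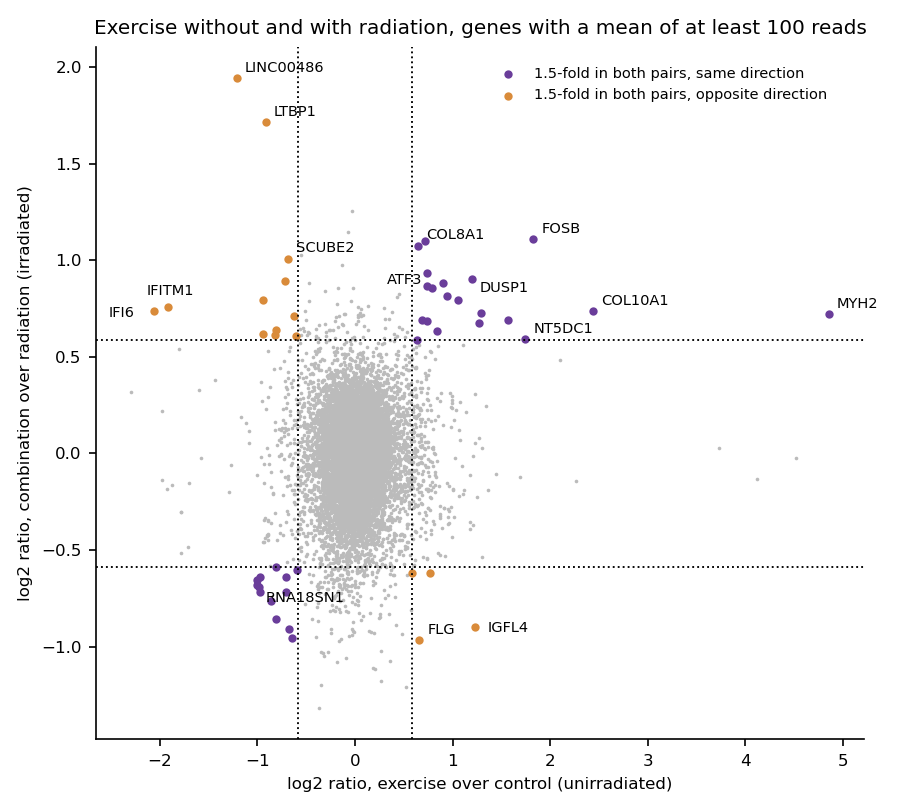
Log2 ratio of combination over radiation (y axis) against exercise over control (x axis), 1 point for each of 15385 genes with a mean of at least 100 reads; dotted lines mark 1.5-fold, purple points pass it in both pairs in the same direction and orange points in opposite directions. FOSB, DUSP1, COL8A1 and COL10A1 lie at the upper right, LTBP1, LINC00486, IFI6 and IFITM1 at the upper left; MYH2 lies far to the right, on 0 reads in control and 14 in exercise.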

How the data were processed

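RNA of 4 groups of A549 xenografts (1 library each) was sequenced after polyA selection with stranded paired reads of 100 nt. Per the paper and the submitters' processing notes, the authors trimmed reads with cutadapt, aligned them to GRCh38 with Bowtie2 2.3.4.1, which does not split reads over introns, and counted them per gene with featureCounts 1.6.0. For the strand setting, mouse reads and pooling of tumors, no statement was found in these sources. The authors deposited raw read counts for 38137 genes, and these counts were used. The deposited FPKM values, an alternative here, imply a length within 2% of the whole gene span for 84.0% of 11157 genes.

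TMM factors (edgeR 4.0.16, R 4.3.3) from genes with a mean of at least 20 reads were 0.982 for radiation and 0.980 for the combination. Log2 ratios with a prior of 0.5 counts, exact 95% intervals and list medians were computed with python 3.11.15, numpy 2.4.6, pandas 2.3.3 and scipy 1.17.1, figures were drawn with matplotlib 3.10.9, and the ratio step was tested on simulated data. Intervals and the floor of 3 counts cover counting error only. The depth of 33432637 to 35408705 reads limits genes under 100 reads. Positions are from RefSeq, which matched 97.4% of the genes compared. Transcript lengths, from GENCODE release 29, covered 82.4%.

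The genes named are the 10 highest and 10 lowest ratios at each minimum (20 and 100 reads), those the study names, the 3 highest and 3 lowest and any 1.5-fold member of each of 48 gene lists (all members of lists of up to 12), the 10 genes most alike in both exercise pairs at each end, and microRNA genes at 2-fold. The text gives those that serve as examples, and the values of some genes are not reported here. Genes outside this rule (EGR1, KRT8, MALAT1, HNF4A, MIR374B, IGFL1, NT5DC1, TIMP3, MASCRNA, the genes whose promoters held a motif and those of opposite direction) were chosen after their values were seen, as were 2 further lists. The members and lists were chosen with earlier results of these data known. Alternatives were other priors, scalings, minimum counts, thresholds, protein-coding genes alone and the FPKM values, and, added after seeing the data, TMM factors from all genes and centring on genes of like length.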

Additional observations from a re-analysis of the deposited data

Results flagged for a closer look

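A total of 16 genes with a mean of at least 100 reads were at least 1.5-fold apart in opposite directions in the exercise pairs, combination over radiation and exercise over control. They were 12 of the 106 genes higher in the irradiated pair, against 1.10% of all genes that were lower in the unirradiated pair. The others were 4 of the 208 genes lower in the irradiated pair, against 1.88% that were higher in the unirradiated pair. LINC00486 and LTBP1 are not taken as separate observations. With 1 library per group the difference between the pairs was not tested. Higher in the combination and lower with exercise alone were, among others, LINC00486 (log2 ratios of 1.94 and −1.21), LTBP1 (1.71 and −0.92), SCUBE2 (1.01 and −0.69), the overlapping NRIP3-DT (0.89 and −0.72), IFITM1 (0.76 and −1.92), IFI6 (0.74 and −2.06), SERPINA6 (0.71 and −0.63), HEPH (0.62 and −0.94), the mitochondrial transfer RNA TRNN (0.61 and −0.82) and CES1 (0.61 and −0.60). Lower in the combination and higher with exercise alone were FLG (−0.97 and 0.66), IGFL4 (−0.90 and 1.23), ITGA11 (−0.62 and 0.77) and ARHGAP11B (−0.62 and 0.59).

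HEPH, a copper-dependent ferroxidase, had 86, 43, 237 and 343 reads in the control, exercise, radiation and combination libraries. IGFL4 had 901, 2042, 1031 and 520.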

How the results depend on the processing

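The 81 genes at least 2-fold higher and 172 lower depended most on the minimum count. With no minimum they were 2362 and 3239, and with a minimum mean of 100 reads 9 and 14. At 1.5-fold they were 448 and 826 and at 4-fold 2 and 9. With FPKM and 0.1 added they were 14 and 22, among protein-coding genes alone 45 and 42, and centred on genes of like transcript length, which fewer genes have, 50 and 87. All other settings (priors of 2 and 0.1 counts, total-count and median-of-ratios scaling, the minimum over the compared libraries only, the counting interval, TMM factors from all genes, and centring on span) gave between 66 and 91 higher and between 135 and 179 lower. Of the 2-fold genes 32.0% were higher, and 31.2% to 38.9% over the scalings.

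Under the other priors and scalings no named gene at 1.5-fold turned direction, and no list with a median at least 0.1 from 0. The lists of energy sensing and DNA repair genes, at −0.01, lay at 0.02 with TMM factors from all genes. With a minimum mean of 100 reads 6 list medians moved by over 0.1, those of the immediate early genes (0.33), histones (0.24), muscle (0.01), fibroblast (−0.05), endothelial and pericyte (−0.03) and adipocyte markers (0.40). With no minimum 7 did: glucocorticoid-induced genes (0.08), histones (0.22), muscle (0.34) and adipocyte markers (0.42), and metallothionein, keratinocyte and lymphoid genes, each at 0.00, and the energy sensing median was 0.01. With FPKM and 0.1 added 4 did: immediate early genes (0.32), glucocorticoid-induced genes (0.10), and muscle (0.04) and fibroblast markers (−0.06). Centring on length lowered the medians of the immediate early, chaperone, histone, ribosomal protein and OXPHOS lists, as given with them. It did not lower those of every list of short genes. The median of the liver genes rose from 0.43 to 0.49 on span and 0.53 on transcript length. That of the macrophage and neutrophil markers rose from 0.16 to 0.20 and 0.18. The cause of the slope with length was not tested. No paired analysis was possible because each group has 1 library, and for the same reason no library could be left out.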
